A study of Mus musculus with 15 samples.

Results

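Cyclin-dependent kinase inhibitors and their regulators were followed in whole islets of C57BL/6 mice that had been transduced with an adenovirus. The 9 genes were the 3 Cip/Kip inhibitors (Cdkn1a, Cdkn1b and Cdkn1c), the 4 Ink4 family genes (Cdkn2a, Cdkn2b, Cdkn2c and Cdkn2d), and the regulators Men1 and Skp2. They were found by gene symbol among the 20308 entries of the RNA-sequencing table, in which each had 1 entry. All 9 were among the 14151 genes that passed the filter on low values, a 75th percentile above 10 over the 15 libraries. Cdkn2a passed it because of its ca-Nfatc2 libraries (9.64 to 23.4), as it held 2.24 to 8.88 with GFP and 2.13 to 12.5 with ca-Nfatc1.

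On each of 5 days, islets of 6 mice were pooled and each pool was divided over 3 viruses that drive their insert from the CMV promoter, which is not limited to beta cells. One virus carried ca-Nfatc2, another ca-Nfatc1, both constitutively active mouse proteins with serines changed to alanine, and the third carried GFP. RNA was taken 48 hr later, giving 5 libraries for ca-Nfatc2, 5 for ca-Nfatc1 and 5 for GFP, in which the replicate number stands for the islet pool. The age of the mice is not given in the sources used here. All 3 groups had been in culture with an adenovirus, and no islets without virus were among the libraries.

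Values are normalized expected counts, the estimated number of reads of a gene divided by a size factor of its library. Fold changes are on the scale log2(value + 1), which makes changes of scarce transcripts look smaller. Depth was 13.5 to 19.8 M expected counts for the ca-Nfatc2 libraries, 15.3 to 21.1 M for ca-Nfatc1 libraries and 13.4 to 18.9 M for GFP libraries. The transcripts of both ca-NFATs were raised in the libraries labelled with them and not in GFP libraries, where the GFP insert itself was not measured. Nfatc2 stood at 37600 to 89100 in ca-Nfatc2 libraries, 352 to 546 in ca-Nfatc1 libraries and 414 to 693 in GFP libraries, and Nfatc1 stood at 24700 to 29290 in ca-Nfatc1 libraries, against 181 to 423 in ca-Nfatc2 libraries and 166 to 291 in GFP libraries. The 9 beta cell markers were present in every library. Their summed level was 526000 to 950100 with ca-Nfatc2, 787800 to 1178000 with ca-Nfatc1 and 1133000 to 1684000 with GFP. All 9 of these markers fell with ca-Nfatc2 and 7 of 9 fell with ca-Nfatc1, as did 5 and 3 of 5 alpha cell markers. Both delta and both PP cell markers fell with each ca-NFAT, and the 2 delta markers together stood at 1851 to 3929 with ca-Nfatc2, 4494 to 7071 with ca-Nfatc1 and 14280 to 28430 with GFP. With ca-Nfatc2, 4 of 6 endothelial and 4 of 6 mesenchymal markers fell, against 0 and 1 of 6 with ca-Nfatc1. Of 5 ductal markers tested, 3 rose and 1 fell with ca-Nfatc2, and 3 rose and 1 fell with ca-Nfatc1. Among 5 acinar markers tested, 0 rose and 1 fell with ca-Nfatc2, and 3 rose and 1 fell with ca-Nfatc1. Among 6 leukocyte markers tested, 1 rose and 2 fell with ca-Nfatc2, and 0 rose and 1 fell with ca-Nfatc1. All 14 of a list of cycling cell genes rose with ca-Nfatc2. Rises and falls are counted here at an adjusted p under 0.05 (limma). At that threshold 35.7% of all genes tested rose and 32.8% fell with ca-Nfatc2, and 28.4% rose and 28.4% fell with ca-Nfatc1. In bulk RNA, fewer cells of a type and less RNA per cell cannot be told apart, and the part that any of these shifts has in the results that follow was not tested.

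As background, cyclins activate cyclin-dependent kinases (CDKs), which phosphorylate the retinoblastoma family of pocket proteins and release E2F transcription factors for entry into S phase. Ink4 proteins bind Cdk4 and Cdk6 and keep them from D-type cyclins, while Cip/Kip proteins bind complexes of cyclin E or cyclin A with Cdk2 and, at the same time, can help cyclin D and Cdk4 to assemble. Skp2 is the F-box subunit that brings p27, the product of Cdkn1b, to an SCF ubiquitin ligase for destruction. Men1 encodes menin, which recruits a histone methyltransferase complex to Cdkn1b and Cdkn2c in islet cells. Adult beta cells seldom divide, and loss of p27 or menin in mice raises islet cell number or leads to islet tumours.

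With ca-Nfatc2 all 9 genes differed from GFP (limma, adjusted p under 0.05), 6 of them higher and 3 lower. These 6 include Cdkn2a, which entered the test because of its ca-Nfatc2 libraries, so its call is not independent of the filter. Skp2, Cdkn2a, Cdkn2d, Cdkn1c, Cdkn1a and Cdkn2c rose, and Cdkn2b, Cdkn1b and Men1 fell. This has to be read against all genes tested, of which 68.6% passed in the same comparison, 35.7% higher and 32.8% lower. The median absolute log2 fold change was 0.88 for the 9 genes and 0.44 for all genes tested, and the signed medians were 0.75 and 0.01. The 5 ca-Nfatc2 libraries and the 5 GFP libraries did not overlap for 7 of the 9 genes, the exceptions being Cdkn2c and Men1, and they did not overlap for 52.0% of all genes tested.

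With ca-Nfatc1, 6 of the 9 genes differed from GFP, 4 higher (Cdkn1c, Skp2, Cdkn2c and Cdkn2d) and 2 lower (Cdkn2b and Cdkn1b), where 56.8% of all genes tested passed, 28.4% higher and 28.4% lower. The median absolute log2 fold change was 0.40 for the 9 genes against 0.32 for all genes. Between the ca-NFATs, 6 of 9 differed, with Skp2, Cdkn1a and Cdkn2d higher in ca-Nfatc2 islets and Cdkn1c, Cdkn2b and Cdkn1b lower, where 49.3% of all genes passed, 23.6% higher and 25.7% lower. Here the median absolute log2 fold change was 0.72 for the 9 genes against 0.27 for all genes. Both ca-NFAT comparisons with GFP share the same 5 GFP libraries, so their values are given side by side.

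**Figure D1:**
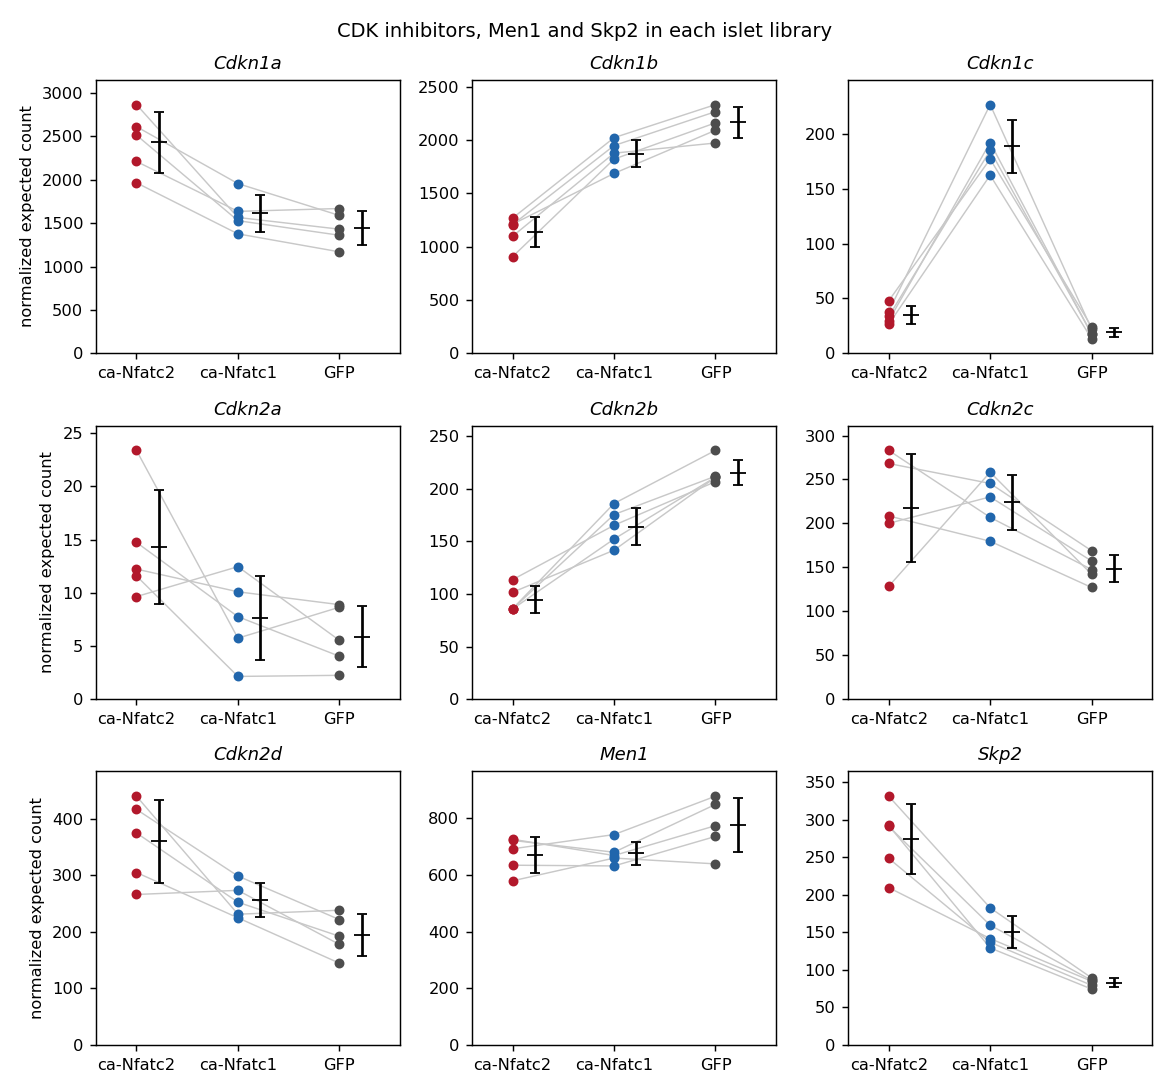
Normalized expected counts of the 9 genes (vertical axes, each from 0) in the 15 libraries. Points are libraries, grey lines join libraries of the same islet pool, and the bar beside each group is the mean ± SD (n = 5). Cdkn1c stands out with ca-Nfatc1 (162 to 227). Over ca-Nfatc2, ca-Nfatc1 and GFP, Skp2 steps down and Cdkn2b steps up, both without overlap. Cdkn1b is lowest with ca-Nfatc2, while its ca-Nfatc1 and GFP libraries overlap.

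Cdkn1c, which encodes p57 and is an imprinted gene expressed from the maternal copy, separated the 2 ca-NFATs. It had 38.1, 47.9, 33.7, 26.6 and 29.8 normalized expected counts in the ca-Nfatc2 libraries of pools 1 to 5. The ca-Nfatc1 libraries held 227, 177, 185, 162 and 192 and the GFP libraries 22.1, 24.2, 17.9, 13.3 and 17.5. No library of one group reached the range of another. The mean was 9.94 times the GFP mean with ca-Nfatc1 (log2 fold change 3.26, 95% confidence interval 2.89 to 3.64, adjusted p = 3.52e-11). With ca-Nfatc2 it was 1.85 times the GFP mean (log2 fold change 0.85, 0.48 to 1.23, adjusted p = 0.000401), a call that was lost under quantile normalization (0.42, adjusted p = 0.0763), which moved the median log2 fold change of all genes tested to -0.10 with ca-Nfatc2 and -0.12 with ca-Nfatc1. The difference between ca-Nfatc2 and ca-Nfatc1 was -2.41 on the log2 scale (-2.79 to -2.03, adjusted p = 9.97e-09), in the same direction in all 5 pools, at -2.65 to -1.87.

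Cdkn1b, which encodes p27, a brake on beta cell division, fell with both ca-NFATs. The ca-Nfatc2 libraries of pools 1 to 5 held 1267, 1206, 1210, 906 and 1097 normalized expected counts. The ca-Nfatc1 libraries held 2021, 1947, 1686, 1820 and 1876, against 2331, 2265, 2091, 2160 and 1971 in GFP libraries. All ca-Nfatc2 libraries lay below every other library, whereas ca-Nfatc1 and GFP overlapped. The mean fell to 0.526 of the GFP mean with ca-Nfatc2 (log2 fold change -0.93 ± 0.08 SE, adjusted p = 1.8e-08). With ca-Nfatc1 the decrease was smaller (-0.21 ± 0.08 SE, adjusted p = 0.0377), lower in 5 of 5 pools, and it missed the threshold without ca-Nfatc1 replicate 3, 4 or 5 or GFP replicate 1, 2 or 4 (-0.21 to -0.17, adjusted p = 0.0589 to 0.096). It also missed the threshold when libraries were scaled to equal totals (-0.15, adjusted p = 0.11). The ca-NFATs differed by -0.72 (adjusted p = 1.5e-06).

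Cdkn1a, which encodes p21 and is induced by p53 and by many growth signals, rose with ca-Nfatc2. It had 1964, 2513, 2865, 2611 and 2210 normalized expected counts in the ca-Nfatc2 libraries. The counts were 1376, 1528, 1565, 1955 and 1635 in the ca-Nfatc1 libraries and 1169, 1360, 1430, 1588 and 1668 in the GFP libraries. The lowest ca-Nfatc2 library lay above the highest of both other groups, and pool 1 gave the lowest library in each group. The mean with ca-Nfatc2 was 1.69 times the GFP mean (log2 fold change 0.75, 0.51 to 0.99, adjusted p = 1.28e-05) and 1.51 times the ca-Nfatc1 mean (0.59, adjusted p = 0.000326). The difference between ca-Nfatc1 and GFP was 0.16 (-0.08 to 0.40, adjusted p = 0.236), positive in 4 of 5 pools.

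With ca-Nfatc2 the Cip/Kip genes changed in opposite directions at a similar summed level. Summed over Cdkn1a, Cdkn1b and Cdkn1c, the normalized expected counts were 3605 ± 342 with ca-Nfatc2, 3671 ± 180 with ca-Nfatc1 and 3626 ± 97.9 with GFP (SD, n = 5 each), and the ranges overlapped. The ratio of Cdkn1a to Cdkn1b was 2.18 ± 0.49 with ca-Nfatc2, 0.868 ± 0.149 with ca-Nfatc1 and 0.673 ± 0.131 with GFP. It lay between 1.55 and 2.88 in ca-Nfatc2 libraries and reached at most 1.07 in ca-Nfatc1 libraries and 0.846 in GFP libraries. These sums and ratios are descriptions of the counts, which also depend on transcript length.

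**Figure D2:**
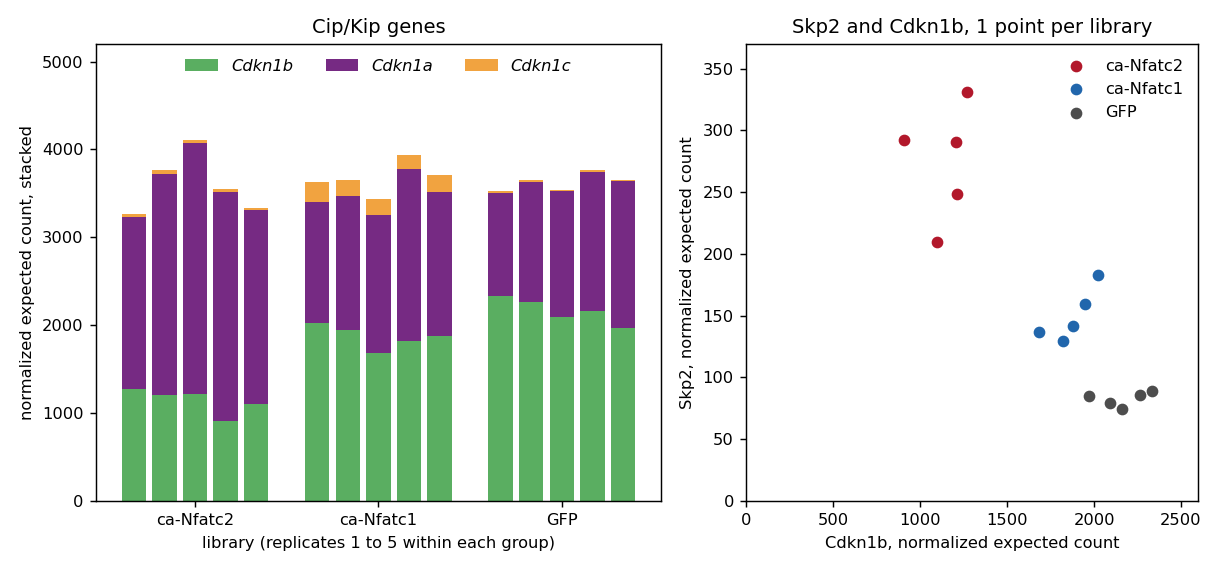
Left, stacked normalized expected counts of Cdkn1b, Cdkn1a and Cdkn1c in each library, replicates 1 to 5 from left to right within each group. Right, Skp2 against Cdkn1b, 1 point per library. The 5 ca-Nfatc2 libraries have the lowest Cdkn1b (906 to 1267) and the highest Skp2 (209 to 331), while the stacks keep about the same height in the 3 groups.

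Skp2, the F-box protein that directs p27 to its ligase, rose with both ca-NFATs, in the order ca-Nfatc2, ca-Nfatc1 and GFP. The ca-Nfatc2 libraries held 331, 291, 248, 292 and 209 normalized expected counts, the ca-Nfatc1 libraries 182.5, 159, 136.5, 129 and 142, and the GFP libraries 89.2, 86.0, 79.4, 74.4 and 84.7. None of the 3 groups overlapped with another. The mean was 3.32 times the GFP mean with ca-Nfatc2 (log2 fold change 1.70 ± 0.12 SE, adjusted p = 1.47e-09) and 1.81 times the GFP mean with ca-Nfatc1 (0.84 ± 0.12 SE, adjusted p = 1.61e-05). The ca-NFATs differed by 0.86 (adjusted p = 2.01e-05), and each of these 3 differences had the same sign in 5 of 5 pools. The ratio of the Skp2 count to the Cdkn1b count, in percent and not corrected for length, was 24.4% ± 5.2 with ca-Nfatc2, 7.99% ± 0.73 with ca-Nfatc1 and 3.83% ± 0.305 with GFP (SD, n = 5 each). Both are transcript counts, and the p27 protein on which Skp2 acts was not measured in these libraries.

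The Skp2 gene lies on chromosome 15 at 9111982 to 9155425 of GRCm38.p6 (mm10), on the minus strand, and overlaps Lmbrd2 on the plus strand, from 9140528. Lmbrd2 itself was not called in any comparison, with log2 fold changes of -0.08, -0.07 and -0.01 (adjusted p = 0.353, 0.441 and 0.923). Whether the counting used strand is not given in the sources used here. Cdkn1b lies on chromosome 6 at 134920401 to 134925525 on the plus strand, and Cdkn2b on chromosome 4 at 89306289 to 89311032 on the minus strand.

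The 250 bases before the annotated start of these 3 genes are shown as examples that changed with both ca-NFATs, Skp2 up, Cdkn1b and Cdkn2b down. Cdkn1c, Cdkn2c and Cdkn2d also rose with both and are not shown, and the Cdkn2c windows held no match to the core described next. The sequences are RefSeq windows of GRCm38.p6, at chr15:9155426-9155675 (minus strand), chr6:134920151-134920400 (plus strand) and chr4:89311033-89311282 (minus strand), and capitals mark the letters GGAAA or the reverse, TTTCC, the core that NFAT proteins bind.
Skp2: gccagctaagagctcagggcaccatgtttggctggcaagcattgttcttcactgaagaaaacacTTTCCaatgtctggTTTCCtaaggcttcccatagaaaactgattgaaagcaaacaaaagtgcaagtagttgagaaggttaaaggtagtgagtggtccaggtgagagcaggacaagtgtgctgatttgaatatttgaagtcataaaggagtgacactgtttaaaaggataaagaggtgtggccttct
Cdkn1b: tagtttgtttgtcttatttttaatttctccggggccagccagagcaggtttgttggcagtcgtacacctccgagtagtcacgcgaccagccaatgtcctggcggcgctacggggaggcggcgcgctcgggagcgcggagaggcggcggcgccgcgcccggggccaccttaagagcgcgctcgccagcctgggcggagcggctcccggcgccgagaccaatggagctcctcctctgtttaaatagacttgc
Cdkn2b: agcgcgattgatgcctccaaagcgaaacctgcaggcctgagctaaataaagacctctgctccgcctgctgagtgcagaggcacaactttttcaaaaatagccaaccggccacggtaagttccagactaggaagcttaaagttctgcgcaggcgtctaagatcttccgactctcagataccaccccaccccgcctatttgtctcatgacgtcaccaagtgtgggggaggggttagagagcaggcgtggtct
The core occurs 2 times in the Skp2 window and not in the windows of Cdkn1b and Cdkn2b. Over all 32851 promoter windows of this length, 55.6% held at least 1 match on either strand, so a match or its absence in a single window is a description only. A second Skp2 window, which begins inside the gene at an alternative start and overlaps the first exon of Lmbrd2, held 3 matches.

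The windows of the other genes were searched in the same way. Cdkn2a had 1 match in each of 2 windows, Cdkn2c 0 in each of 2, Cdkn2d 1 match, Cdkn1a 1 and 0 in 2 windows, and Men1 1, 1 and 2 in 3 overlapping windows. Neither an E2F site, searched as TTTGGCGC or TTTCGCGC on both strands, nor the letters TATAAA were in any of these windows, and over all promoter windows the shares were 0.654% and 12.4%. Promoters were matched for 8 of the 9 genes, all but Cdkn1c.

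Of the Ink4 genes, Cdkn2b, which encodes p15 and is known as a target of transforming growth factor beta, fell with both ca-NFATs. It had 85.7, 85.9, 114, 85.9 and 102 normalized expected counts in ca-Nfatc2 libraries, 152, 186, 165, 175.5 and 142 in ca-Nfatc1 libraries and 211, 236.5, 207, 212 and 211 in GFP libraries. The 3 groups did not overlap, in the reverse order of Skp2. The log2 fold change against GFP was -1.19 ± 0.10 (SE) with ca-Nfatc2 (adjusted p = 1.67e-08) and -0.40 ± 0.10 with ca-Nfatc1 (adjusted p = 0.0036), and the ca-NFATs differed by -0.79 (adjusted p = 7.46e-06). All of these calls held in each of the 24 alternative settings.

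Cdkn2a gives rise to p16 (Ink4a) and, from another first exon and reading frame, to p19 (Arf), and its single entry sums over both. Its level was very low, with 23.4, 14.7, 11.6, 12.2 and 9.64 normalized expected counts in ca-Nfatc2 libraries, 5.73, 7.75, 2.13, 10.1 and 12.5 in ca-Nfatc1 libraries and 8.64, 4.03, 2.24, 8.88 and 5.53 in GFP libraries. The ca-Nfatc2 libraries lay above all GFP libraries but overlapped with ca-Nfatc1. The log2 fold change against GFP was 1.21 with ca-Nfatc2, with a wide interval (0.36 to 2.07, adjusted p = 0.0131), and this call was lost under quantile normalization (0.41, adjusted p = 0.4). With ca-Nfatc1 it was 0.29 (-0.56 to 1.14, adjusted p = 0.56). The difference between the ca-NFATs, 0.92 (0.07 to 1.78, adjusted p = 0.0673), passed the threshold with the islet pool as a replicate block (adjusted p = 0.034), without ca-Nfatc1 replicate 5 (1.12, adjusted p = 0.0376), under quantile normalization (1.06, adjusted p = 0.0475) and with a pseudocount of 10 (0.47, adjusted p = 0.0475).

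Cdkn2a and Cdkn2b are neighbours on chromosome 4, with 11.7 kb between them, and moved in opposite directions with ca-Nfatc2. The next tested gene on the other side of Cdkn2a, Mtap at 93.4 kb, averaged 908.5 normalized expected counts with ca-Nfatc2 against 537 with GFP (log2 fold change 0.76, adjusted p = 4.21e-08).

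Cdkn2c, which encodes p18, had 268, 200.1, 283, 128 and 208.5 normalized expected counts in ca-Nfatc2 libraries, 245.5, 230.2, 207, 258 and 179.7 in ca-Nfatc1 libraries and 169, 157, 147.5, 142 and 127 in GFP libraries. The ca-Nfatc1 libraries lay above all GFP libraries, whereas ca-Nfatc2 replicate 4 lay within the GFP range. The log2 fold change against GFP was 0.50 with ca-Nfatc2 (0.14 to 0.86, adjusted p = 0.0146, higher in 4 of 5 pools) and 0.58 with ca-Nfatc1 (0.23 to 0.94, adjusted p = 0.00723, higher in 5 of 5 pools). Under quantile normalization both calls were lost (0.33, adjusted p = 0.109, and 0.41, adjusted p = 0.0583). The ca-NFATs differed by -0.08 (-0.44 to 0.28, adjusted p = 0.718), and without ca-Nfatc2 replicate 4 the difference was 0.09 (adjusted p = 0.588).

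Cdkn2d, which encodes p19 (Ink4d), had 416.5, 375, 439.9, 266 and 305 normalized expected counts in ca-Nfatc2 libraries, 299, 252, 231, 273 and 225 in ca-Nfatc1 libraries and 222, 192, 238, 178 and 145 in GFP libraries. The ca-Nfatc2 libraries all lay above the GFP libraries, and the ca-Nfatc1 libraries overlapped with both. The log2 fold change against GFP was 0.88 with ca-Nfatc2 (0.57 to 1.19, adjusted p = 4.6e-05) and 0.41 with ca-Nfatc1 (0.09 to 0.72, adjusted p = 0.0268), and the ca-NFATs differed by 0.47 (0.16 to 0.79, adjusted p = 0.0135). The call with ca-Nfatc1 was lost without ca-Nfatc1 replicate 1 or 4 or GFP replicate 4 or 5 (0.30 to 0.38, adjusted p = 0.0571 to 0.0834) and under quantile normalization (0.25, adjusted p = 0.167).

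Men1 changed least of the 9 genes with ca-Nfatc2. It had 579, 726, 722, 692 and 634 normalized expected counts in ca-Nfatc2 libraries, 659.6, 669, 680.2, 742.5 and 632 in ca-Nfatc1 libraries and 639, 774, 849, 878 and 736 in GFP libraries, and the 3 groups overlapped. The log2 fold change was -0.20 with ca-Nfatc2 (-0.39 to -0.02, adjusted p = 0.0449, lower in 5 of 5 pools) and -0.19 with ca-Nfatc1 (-0.37 to -0.01, adjusted p = 0.0724, lower in 4 of 5 pools). With the islet pool as a replicate block, the decrease with ca-Nfatc1 passed the threshold (adjusted p = 0.0101). It also passed without GFP replicate 1 (-0.26, adjusted p = 0.0113) and under quantile normalization (-0.24, adjusted p = 0.0195). The call with ca-Nfatc2 was lost in 12 of 24 alternative settings, among them equal totals (-0.15, adjusted p = 0.173), the absence of a filter on low values (adjusted p = 0.0506), and leaving out ca-Nfatc2 replicate 1 or 5, ca-Nfatc1 replicate 1, 2, 3 or 5, or GFP replicate 2, 3 or 4 (-0.20 to -0.15, adjusted p = 0.0502 to 0.128). With the islet pool as a replicate block the call with ca-Nfatc2 was kept (adjusted p = 0.0051). Without a ca-Nfatc1 library the fold change with ca-Nfatc2 stayed at -0.20 while its error changed. The ca-NFATs differed by -0.02 (-0.20 to 0.17, adjusted p = 0.898).

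**Figure D3:**
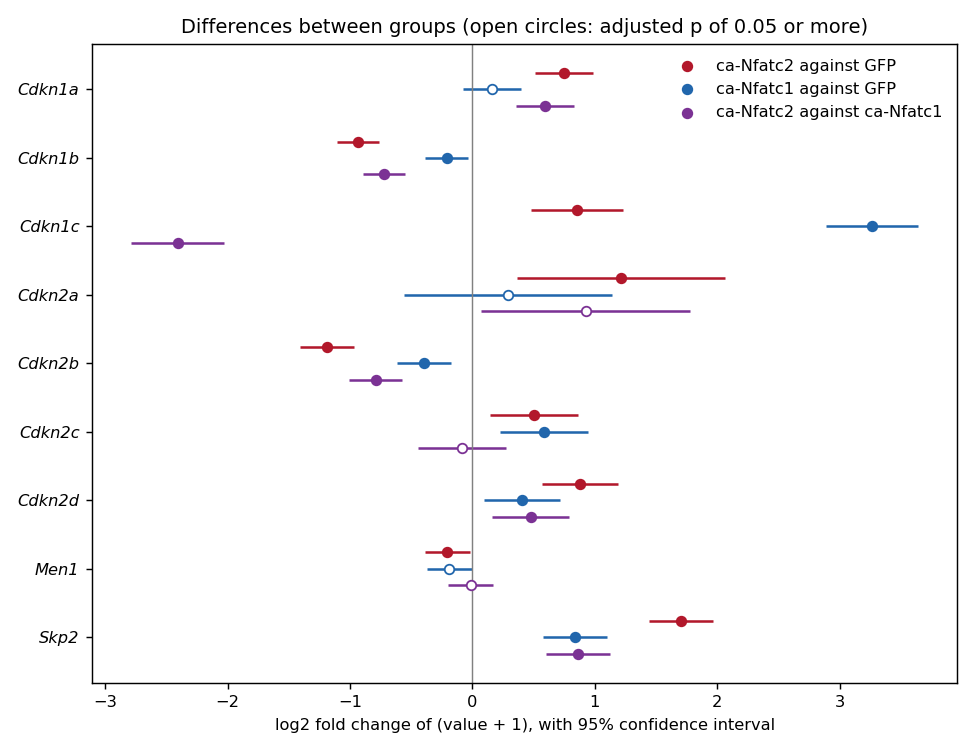
Log2 fold changes of the 9 genes (horizontal axis, value + 1) with 95% confidence intervals for each ca-NFAT against GFP and for the 2 ca-NFATs against each other, ca-Nfatc2 over ca-Nfatc1 (15 libraries in 1 limma fit). Filled circles have an adjusted p under 0.05. Cdkn1c lies at 3.26 with ca-Nfatc1 and 0.85 with ca-Nfatc2, Cdkn2a has the widest intervals, and those of Men1 are narrow and close to 0.

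Within groups, some of the genes varied together and others did not. After group means were removed, Pearson's r between 2 members over the 15 libraries ran from -0.49 (Cdkn1a with Cdkn1c) to 0.81 (Cdkn2c with Cdkn2d). In pool 4, the ca-Nfatc2 library held the lowest values of its group for Cdkn1b (906), Cdkn1c (26.6), Cdkn2c (128) and Cdkn2d (266), and the highest Nfatc2 (89100). In the same library Cdkn1a (2611), Men1 (692) and Skp2 (292) were not the lowest of the group. Without this library the log2 fold changes with ca-Nfatc2 were -0.86 for Cdkn1b and 0.68 for Cdkn2c. The coefficient of variation within a group was 37.7%, 52.1% and 49.3% for Cdkn2a with ca-Nfatc2, ca-Nfatc1 and GFP. For Men1 it was 9.37%, 6.06% and 12.3% in the same order.

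Divided by transcript length, the order of the 9 genes differed between the groups. In GFP islets Cdkn1a (1018 ± 138 normalized expected counts per kb) and Cdkn1b (904 ± 59.3) led without a difference beyond their spread, followed by Men1 (282 ± 34.5), Cdkn2b (155 ± 8.58), Cdkn2d (137 ± 25.9), Cdkn2c (83.1 ± 8.80), Skp2 (33.5 ± 2.38), Cdkn1c (10.03 ± 2.24) and Cdkn2a (6.71 ± 3.31). The ranges of Cdkn2b and Cdkn2d overlapped, as did those of Cdkn1c and Cdkn2a. With ca-Nfatc2 the order was Cdkn1a (1716 ± 248), Cdkn1b (475 ± 59.9), Cdkn2d (253 ± 51.7), Men1 (244 ± 22.9), Cdkn2c (122 ± 34.5), Skp2 (111 ± 18.9), Cdkn2b (68.0 ± 9.12), Cdkn1c (18.6 ± 4.38) and Cdkn2a (16.4 ± 6.17). Here Cdkn2d and Men1 overlapped, as did Cdkn2c and Skp2, and Cdkn1c and Cdkn2a, and the wide range of Cdkn2c (71.8 to 158.3) also reached that of Cdkn2b (61.7 to 81.8). Cdkn2b stood above Skp2 with GFP and below it with ca-Nfatc2. With ca-Nfatc1 Cdkn1c reached 99.6 ± 12.7 per kb, and its libraries (85.7 to 119.7) overlapped with those of Cdkn2b (101.9 to 133.8, mean 118 ± 12.8). Lengths are means over the RefSeq transcripts that could be matched, and the transcripts in use in islets were not measured.

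Lists of genes that act with these inhibitors were compared in the same way. Their median log2 fold changes can be set beside those of all genes tested, 0.01 with ca-Nfatc2 and -0.02 with ca-Nfatc1. Their counts have to be read against all genes tested, of which 35.7% were higher and 32.8% lower with ca-Nfatc2. For ca-Nfatc1 these shares were 28.4% and 28.4%, and between the ca-NFATs 23.6% and 25.7%. Of 11 tested cyclins and kinases that the inhibitors bind, 8 rose with ca-Nfatc2 and 1 fell, with a median log2 fold change of 1.23. Cdk1, the mitotic kinase, averaged 358 ± 109 normalized expected counts with ca-Nfatc2 against 24.7 ± 7.0 with GFP (log2 fold change 3.80, adjusted p = 2.47e-10). Ccne1, cyclin E1, which partners Cdk2 and is held by p27, averaged 280.1 ± 35.3 against 58.7 ± 6.35 (2.23, adjusted p = 2.58e-10), and Ccna2, cyclin A2, 414 ± 139 against 61.1 ± 16.5 (2.72, adjusted p = 1.1e-08). The gene that fell was Ccnd2, the D-type cyclin on which mouse beta cells depend, at 4439 with ca-Nfatc2 against 8160 with GFP (-0.88, adjusted p = 1.28e-08).

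With ca-Nfatc1 0 of these 11 rose and 4 fell in the limma fit, with a median of -0.28, and 0 rose also at an unadjusted p under 0.05 and with limma-voom. Ccnd1, cyclin D1, averaged 1198 ± 80.5 with ca-Nfatc1 against 2189 ± 196 with GFP (-0.87, adjusted p = 1.59e-08). Ccnd2 averaged 6254 ± 479 against 8160 ± 404 (-0.39, adjusted p = 0.000316), and Cdk4, the kinase that Ink4 proteins bind, 2862 ± 220 against 3460 ± 142 (-0.28, adjusted p = 0.00133). Between the ca-NFATs 10 of 11 were higher with ca-Nfatc2 and 1 was lower.

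Of 13 pocket protein and E2F genes, 7 rose and 2 fell with ca-Nfatc2, and 2 rose and 7 fell with ca-Nfatc1. Their medians were 0.29 and -0.20, and 69.2% were called with each ca-NFAT, against 68.6% and 56.8% of all genes tested. E2f1, an activator E2F, averaged 381 ± 34.6 with ca-Nfatc2 against 225 ± 26.7 with GFP (0.76, adjusted p = 4.59e-06) and E2f3 274 ± 21.2 against 172 ± 22.5 (0.68, adjusted p = 9.08e-06). Rbl2, which encodes the p130 pocket protein of resting cells, averaged 775 ± 54.3 against 1112 ± 60.5 (-0.52, adjusted p = 6.5e-07). Between the ca-NFATs, E2f1 was higher with ca-Nfatc2 by 1.05 and E2f3 by 1.06.

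Among 17 genes of the SCF-Skp2 ligase and of other routes of p27 and p21 turnover, 8 rose and 3 fell with ca-Nfatc2, and 1 rose and 7 fell with ca-Nfatc1, with medians of 0.13 and -0.15. With the islet pool as a replicate block 2 rose with ca-Nfatc1. In the main fit 64.7% of the list was called with ca-Nfatc2 and 47.1% with ca-Nfatc1. Both shares lay below those of all genes tested, 68.6% and 56.8%. Cks1b encodes the cofactor that Skp2 needs to bind p27. It averaged 152 ± 29.2 with ca-Nfatc2, 84.3 ± 5.06 with ca-Nfatc1 and 123 ± 3.58 with GFP, a log2 fold change of 0.28 with ca-Nfatc2 (adjusted p = 0.0417) and -0.54 with ca-Nfatc1 (adjusted p = 0.000753). Skp1a, the adaptor between the F-box protein and the cullin, averaged 3426 ± 363 with ca-Nfatc1 against 4294 ± 403 with GFP (-0.33, adjusted p = 0.00181). Skp2 and Cks1b moved in opposite directions with ca-Nfatc1. With ca-Nfatc2 both rose, but the Cks1b libraries overlapped with GFP and were higher in 4 of 5 pools. The genes picked by the naming rule with ca-Nfatc2 were Usp10 (0.62), Rnf123 (0.30) and Rchy1 (-0.62). The largest rises of the list with ca-Nfatc2 were those of Dtl (266.5 ± 37.2 against 20.8 ± 4.28 with GFP, 3.63) and Cks2 (187.5 ± 47.9 against 33.9 ± 7.06, 2.43).

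Of 9 genes of menin and the MLL complex besides Men1, 0 rose and 3 fell with each ca-NFAT in the limma fit. The medians were -0.10 with ca-Nfatc2 and -0.14 with ca-Nfatc1. The share called was 33.3% with each, against 68.6% and 56.8% of all genes tested. The count of 0 was the same at an unadjusted p under 0.05 and with limma-voom, while with the islet pool as a replicate block 1 gene rose with ca-Nfatc2. Rbbp5, a core subunit, averaged 928 ± 36.3 with ca-Nfatc2 and 1020 ± 51.5 with ca-Nfatc1, against 1317 ± 154 with GFP (-0.50, adjusted p = 6.8e-06, and -0.36, adjusted p = 0.000286). Psip1, which links menin to chromatin, fell by 0.21 with ca-Nfatc2 (adjusted p = 0.0125) and by 0.30 with ca-Nfatc1 (adjusted p = 0.00117).

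Of 18 repressors and derepressors of the Ink4 and Arf locus, 7 rose and 5 fell with ca-Nfatc2, and 4 rose and 3 fell with ca-Nfatc1, or 5 with the islet pool as a replicate block. The medians were -0.05 and -0.04. In the main fit 66.7% of the list was called with ca-Nfatc2 and 38.9% with ca-Nfatc1, against 68.6% and 56.8% of all genes tested. Cbx7, a Polycomb protein that represses Cdkn2a, averaged 1860 ± 159 with ca-Nfatc2 and 2235 ± 180 with ca-Nfatc1, against 1132 ± 129 with GFP (0.72, adjusted p = 5.4e-07, and 0.98, adjusted p = 1.37e-08). Kdm2b, a histone demethylase known to repress Cdkn2b, averaged 898 ± 84.7 with ca-Nfatc2 and 1083 ± 66.3 with ca-Nfatc1, against 2156 ± 266 with GFP (-1.26, adjusted p = 3.57e-10, and -0.99, adjusted p = 1.35e-08). Ezh2, the Polycomb methyltransferase, was higher with ca-Nfatc2 than with ca-Nfatc1, at 280.5 ± 26.8 against 147 ± 20.1 (0.94, adjusted p = 5.32e-07).

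A list of 23 genes known to act on the inhibitor genes held transcription factors and the ligand gene Tgfb1. Of these, 5 rose and 12 fell with ca-Nfatc2, and 3 rose and 12 fell with ca-Nfatc1, with medians of -0.26 and -0.23. The shares called, 73.9% and 65.2%, compare with 68.6% and 56.8% of all genes tested. The list pools activators and repressors, so these counts give no direction for the inhibitor genes. Myc, which represses Cdkn1a and Cdkn2b and activates Skp2 in other cells, averaged 5041 ± 564 with ca-Nfatc2 and 561 ± 22.6 with ca-Nfatc1, against 356 ± 72.8 with GFP (3.84, adjusted p = 1.52e-14, and 0.68, adjusted p = 0.000106). Klf4, an activator of Cdkn1a, averaged 72.7 ± 8.41 and 69.5 ± 12.7 with the same viruses, against 239.9 ± 39.7 with GFP (-1.70, adjusted p = 9e-09, and -1.78, adjusted p = 7.14e-09). Trp53, which encodes p53, averaged 838 ± 174 with ca-Nfatc2 and 540.4 ± 56.9 with ca-Nfatc1, against 596.5 ± 57.0 with GFP (0.47, adjusted p = 0.00154, and -0.14, adjusted p = 0.303).

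Cdkn1a is itself a target of p53, and the other targets moved in both directions. Of 20 p53 target genes other than Cdkn1a, 5 rose and 12 fell with ca-Nfatc2, with a median log2 fold change of -0.36. With ca-Nfatc1 1 rose and 11 fell, also with a median of -0.36. The shares called, 85.0% and 60.0%, compare with 68.6% and 56.8% of all genes tested. Eda2r, a death receptor, averaged 432 ± 79.8 with ca-Nfatc2 against 116 ± 19.2 with GFP (1.88, adjusted p = 7.42e-10). Sesn2, a stress sensor, averaged 982 ± 167 against 2229 ± 408 (-1.18, adjusted p = 1.62e-06), and Gadd45a, a growth arrest gene, 255 ± 20.7 against 568 ± 69.4 (-1.15, adjusted p = 9.32e-09).

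Of 12 other proteins named for CDK inhibition or binding, 3 rose and 6 fell with ca-Nfatc2, and 3 rose and 5 fell with ca-Nfatc1, with medians of -0.07 and -0.08. Cables1, a CDK substrate that binds Cdk2 and Cdk5, averaged 228 ± 13.4 with ca-Nfatc2 and 192 ± 26.2 with ca-Nfatc1, against 54.6 ± 10.8 with GFP (2.06, adjusted p = 1.45e-10, and 1.80, adjusted p = 1.1e-09). Cdkn2aip, a binding partner of Arf, fell by 0.72 with ca-Nfatc2 (adjusted p = 2.91e-08) and by 0.42 with ca-Nfatc1 (adjusted p = 3.07e-05).

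The 14 cycling cell genes all rose with ca-Nfatc2, and 3 rose and 2 fell with ca-Nfatc1, with medians of 2.34 and -0.10. With ca-Nfatc1 Bub1 averaged 74.8 ± 15.5 against 13.8 ± 3.51 with GFP (2.37, adjusted p = 5.18e-09). Cdc20 averaged 58.4 ± 11.45 against 16.8 ± 6.90 (1.80, adjusted p = 0.00011). Top2a fell, at 82.35 ± 15.2 against 119 ± 32.0 (-0.51, adjusted p = 0.0416). Mki67, which encodes the proliferation antigen Ki-67, averaged 1189 ± 293 with ca-Nfatc2, 103.5 ± 13.0 with ca-Nfatc1 and 113.5 ± 23.4 with GFP (3.37, adjusted p = 7.26e-12, and -0.11, adjusted p = 0.576). Of 12 genes used as marks of cell senescence, 6 rose and 2 fell with ca-Nfatc2, and 4 rose and 4 fell with ca-Nfatc1. Their medians were 0.47 and 0.19. The share called was 66.7% with each, against 68.6% and 56.8% of all genes tested.

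**Figure D4:**
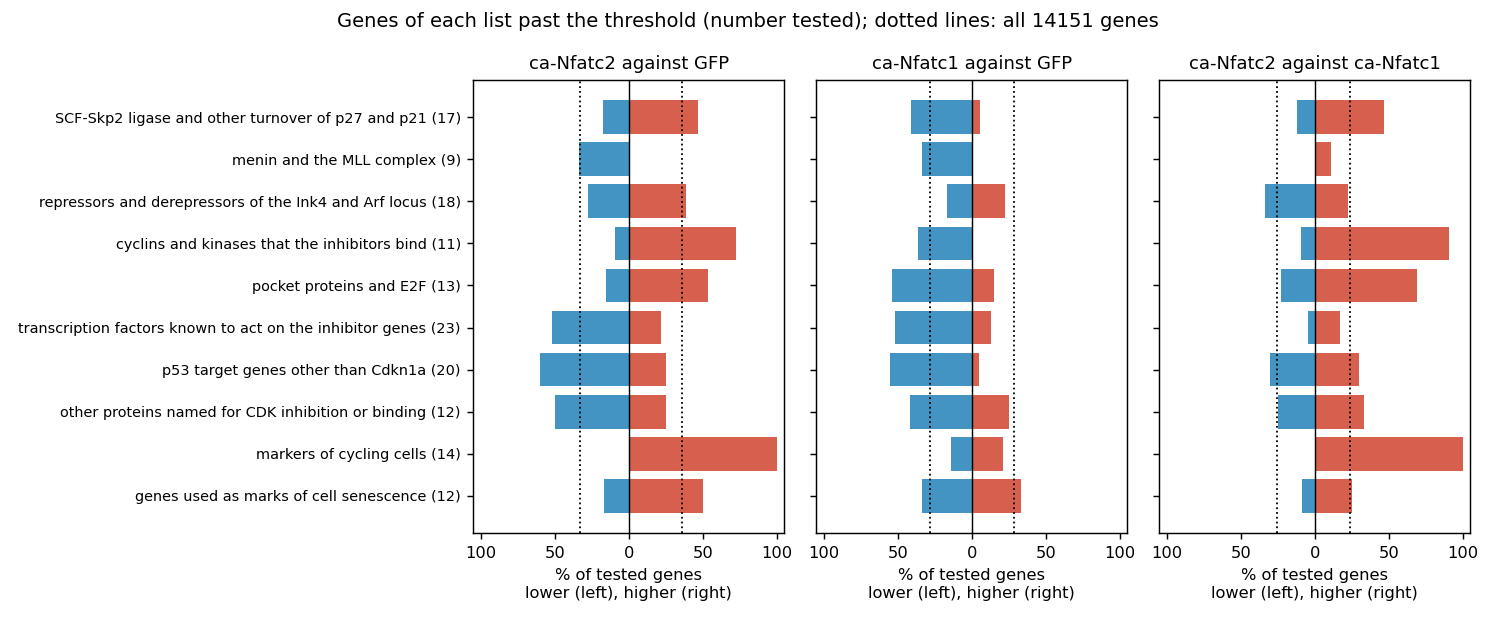
Share of the tested genes of each list (horizontal axis, %) past an adjusted p of 0.05, higher to the right and lower to the left, for the 3 comparisons. Dotted lines are the shares among all 14151 genes (35.7% and 32.8%, 28.4% and 28.4%, 23.6% and 25.7%, higher and lower, from left to right). All 14 cycling cell genes are higher with ca-Nfatc2, and p53 targets lie mostly to the left in both comparisons with GFP.

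The genes whose levels were most like each member over the 15 libraries were also listed, keeping to genes that averaged 100 or more. Pearson's r on the log2 values describes mostly the differences between the 3 groups, and nothing is read from it on shared function. Cdkn1c was most like Isl1, an islet transcription factor (r = 0.986), Dgka (0.983) and Armcx6 (0.983), and Dgka had log2 fold changes of 1.15 with ca-Nfatc2 and 3.28 with ca-Nfatc1. Skp2 was most like Tbccd1 (0.988), Wdr74 and Arfip2, Cdkn1b like Slitrk6 (0.987), Zkscan16 and Snx14, and Cdkn2b like Rtn4 (0.990), Fam46c and Gfpt1. Cdkn1a was most like Rcc2 (0.957), Snx8 and Nomo1, Cdkn2d like Gemin8 (0.948), Aco1 and Herc3, and Men1 like Dctn2 (0.920), Rbm15b and Ccdc64. The lowest values were those of Cdkn2c with Dynlt1b (0.910), Gatm and Gbe1, and of Cdkn2a with Mad2l1 (0.842), Fam188a and Mthfd2.

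The genes on either side of the members were looked up after their values had been seen. Kcnq1 and Slc22a18, the tested genes next to Cdkn1c on chromosome 7 at 31.3 and 12.7 kb, had log2 fold changes of -0.56 and -0.49 with ca-Nfatc1 (adjusted p = 0.101 and 0.173), against the 3.26 of Cdkn1c. Apold1, at 56.5 kb from Cdkn1b, rose by 1.75 with ca-Nfatc1 (adjusted p = 6.04e-11), where Cdkn1b fell. Map4k2 begins 96 bases after Men1 and fell by 0.66 with ca-Nfatc2 (adjusted p = 7.98e-06), and Kri1 ends 490 bases from Cdkn2d and rose by 0.55 (adjusted p = 0.000853).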

How the data were processed

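RNA was sequenced from 15 libraries of mouse islets, 5 for each virus. Per the labels and the study's methods, the authors mapped reads with bowtie to mm10 RefSeq transcripts, obtained expected counts from RSEM, and scaled the libraries with the median-by-ratio method. This expression signal, the normalized expected count, is what the authors deposited. Versions are not given in the sources used here, and the deposited fold changes, posterior probabilities and group means were not used.

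Values were log2-transformed after adding 1 and fitted for all 14151 genes with a 75th percentile above 10 in limma 3.58.1 (R 4.3.3, trend), with 1 coefficient per group, Benjamini-Hochberg adjustment and a threshold of 0.05, two-sided. The script was tested on simulated data. The 9 genes, the gene lists and the tests were chosen with earlier results of these data known. Named genes were the members and, of each list and comparison, up to 3 called genes with a mean of at least 100 and the largest change. Ccnd2, Cks1b, Dtl and Cks2 with ca-Nfatc2 and the neighbouring genes were added after their values were seen.

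Replicate numbers pair the libraries, because each islet pool was split over the 3 viruses. Residuals of libraries of the same pool correlated at 0.0544 to 0.473 (15 pairs, mean 0.219), and those of different pools averaged -0.055 (60 pairs). The main model had no pool term, as in the study, and a fit with the pool as a replicate block was the alternative. Other alternatives were pseudocounts of 0.1 and 10, other filters and scalings, fits of 2 groups, and leaving out each library. The libraries held 13.4 to 21.1 M expected counts. The 27 entries with a date in place of a symbol were tested but not named.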

Additional observations from a re-analysis of the deposited data

Results flagged for a closer look

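Cdkn2b in GFP replicate 2 stood apart from the other GFP libraries, with 236.5 normalized expected counts against 207 to 212 in the other 4, a gap of 0.825 of the range of the group. Of the 27 sets of 5 libraries examined (9 genes in 3 groups) this was the 1 that passed Dixon's limit for 5 values, where about 1 in 20, or 1.35 sets, would be expected by chance. Without this library the fall of Cdkn2b kept its call with both ca-NFATs.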

How the results depend on the processing

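Of the 27 fold changes (9 genes in 3 comparisons), 15 kept their direction and their side of the threshold in every alternative run and 12 did not, of which 3 changed sign in at least 1. Under quantile normalization 3 members were called higher with ca-Nfatc2 and 2 with ca-Nfatc1, and Cdkn2a with ca-Nfatc1, which was not called, had a log2 fold change of -0.65. With equal totals 1 member was called lower with ca-Nfatc1, and without 1 library each 1 to 2 were. Small uncalled differences between the ca-NFATs changed sign without 1 library. Leaving out each library in turn, they ranged over -0.045 to 0.036 for Men1 and -0.19 to 0.093 for Cdkn2c, and the cause was not tested. With the islet pool as a replicate block, 9, 7 and 7 members were called in the 3 comparisons, and the block changed no call of a member except those given above. Among the lists, the paired fit called 1 menin and MLL gene higher with ca-Nfatc2 and 2 lower with ca-Nfatc2 than with ca-Nfatc1, 2 of the SCF-Skp2 list higher and 5 repressors of the Ink4 and Arf locus lower with ca-Nfatc1, and 6 transcription factors lower with ca-Nfatc2 than with ca-Nfatc1.

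The planned count test in a negative binomial model was not run, since whole reads could not be recovered from the deposited values. Weights from expected counts (limma-voom) were added after the data had been seen. A filter on a mean of at least 100 left out Cdkn1c and Cdkn2a.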
